A study of Mus musculus with 6 samples.

Results

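Guidance genes are the ligands and receptors of the ephrin, semaphorin, netrin and Slit systems, and 63 of the 17428 gene symbols in the deposited table belong to them by name. They are the Eph receptors, the A and B ephrins, the semaphorins of classes 3 to 7, the plexins of groups A to D, both neuropilins, the Slits, the Robos, the Unc5 receptors and the numbered netrins, taken by gene symbol. The RNA came from EpH-4, a mouse mammary epithelial cell line, and was sequenced in 2 libraries from biological replicates of each of 3 states (6 libraries). E cells were grown in the ordinary medium with fetal bovine serum, insulin and penicillin-streptomycin and had no TGF-β1. M cells had the same medium with TGF-β1 for 7 days. RE cells, the reverted epithelial state, had TGF-β1 for 7 days and then 4 days without it. All 3 states are cultures of 1 cell line, and the labels name no genetic change between them. In the comparisons, E and M differ by 7 days of TGF-β1, M and RE by 4 days of withdrawal, and E and RE by the whole on and off course. Each pair of comparisons shares 2 libraries. The labels name no untreated culture kept for the same times and no M culture kept for the 4 days. Time in culture can therefore not be told apart from TGF-β1 or its withdrawal.

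Guidance cues were first known from growing axons and are used by epithelia and vessels as well. Ephrins sit on the surface of one cell and bind Eph receptor tyrosine kinases on its neighbour, A ephrins through a lipid anchor and B ephrins through a transmembrane segment, and the contact commonly ends in repulsion or in sorting of unlike cells at a boundary. Class 3 semaphorins are secreted and mostly act through a neuropilin joined to a plexin, whereas most of the other vertebrate semaphorins stay on the membrane and bind plexins directly. Netrins bind Dcc, neogenin and the Unc5 receptors, and Slits bind Robos, and in the mammary gland these systems are known for holding the bilayer of the duct together and for shaping its branching.

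The libraries hold between 35782513 and 47928557 reads' worth of sequence, counted in reads of 50 bases. A level is a gene's share of all sequenced bases after TMM scaling, in ppm of the library total, and a gene was called when its log2 fold change was above 1 in either direction and its adjusted p from limma, over the 13893 genes tested, was below 0.01. The E libraries were less alike than the others: 9 of 54 guidance genes differed more than 2-fold between them, against 3 between the M and 1 between the RE libraries. Over all 13893 genes the numbers were 1049, 274 and 224, in E and M a smaller share than among the guidance genes. The epithelial marker list (7 of 8 genes in the table, led by *Krt18*) summed to between 1565 and 1910.0 ppm in the E, 1338 and 1349 in the M and 884 and 921 in the RE libraries. In E vs. M its members did not move alike, since *Cldn3*, *Cldn4*, *Cldn7* and *Ocln* fell while *Cdh1*, *Krt8* and *Krt18* were not called (log2 fold changes of −0.15, 0.67 and −0.37). The mesenchymal list (8 of 8, of which 6 rose in E vs. M, led by *Fn1*) went from between 2419.6 and 5329.5 ppm in the E to between 18227 and 18526 in the M libraries and lay between 10688 and 11703 in the RE libraries. Of cell types that should be absent, the leukocyte marker *Ptprc* had at most 0.0781 ppm and the endothelial marker *Pecam1* at most 0.429 ppm in any library. *Cd68*, also on the leukocyte list, lay between 5.17 and 9.18 ppm over the libraries and was not called in any comparison. Other markers on those lists did move with the M state, *Cdh5* to 2.33 and 2.07 ppm and *Csf1r* to 25.8 and 29.9 ppm. The endothelial list (4 of 5 genes in the table) summed to between 0.37 and 0.56 ppm in the E, 2.71 and 2.73 in the M and 0.493 and 0.497 in the RE libraries. The leukocyte list (5 of 5) summed to between 6.82 and 10.6, 33.2 and 36.9, and 7.47 and 7.61 ppm, and the neuronal list (2 of 5) to at most 0.703 ppm. The fibroblast and pericyte list (4 of 5) went from between 116 and 146 ppm in the E to between 881 and 1043 in the M and between 968 and 1178 in the RE libraries. *Pdgfrb* and *Col1a1* carry that sum and rose in E vs. M, whereas *Dcn* was called lower in M (0.496 and 0.301 ppm in E, 0 and 0.00679 in M) and *Pdgfra* was not called in E vs. M. In E vs. RE, 4 of these 4 markers, *Dcn* and *Pdgfra* included, were called higher in RE. In the same comparison 4 of the 8 mesenchymal markers were called higher and 0 lower, and 4 of the 7 epithelial markers lower and 0 higher. The part of these markers in the results on guidance genes was not tested.

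Of the 63 guidance genes, 54 had enough coverage to be tested, which takes a minimum of 500 bases, or 10 reads' worth, in 2 or more libraries. The other 9 (*Efna2*, *Epha5*, *Epha8*, *Epha10*, *Ephb1*, *Robo2*, *Robo4*, *Sema6d* and *Unc5a*) had at most 8 reads' worth in any library. In E vs. M, 11 guidance genes were called higher and 8 lower in the M cells, 19 of 54 or 35.2%, against 17% of all genes tested in either direction. In M vs. RE, the RE cells were higher in 14 and lower in 7, that is 21 of 54 or 38.9%, against a background of 12.9%. In E vs. RE, the RE cells were higher in 11 and lower in 1, that is 12 of 54 or 22.2%, against 9.37% of all genes. The background by direction was 8.58% higher and 8.39% lower in E vs. M, 8.08% and 4.79% in M vs. RE, and 6.2% and 3.17% in E vs. RE. The median log2 fold change of the 54 genes was 0.20, 0.043 and 0.39 in the 3 comparisons, with 0.0013, −0.017 and 0.0079 for all genes. Altogether 28 guidance genes (51.9%) were called at least once, where 24.2% of all genes tested were, and the plot of the differences shows them by the order of their calls. The counts depended on the libraries. Like the share of all genes called, they were lower without an M or RE library of the comparison and higher without an E library. Without 1 library at a time they ran from 8 (without M replicate 2) to 23 (without E replicate 2) in E vs. M, from 8 (without M replicate 1) to 22 (without either E library) in M vs. RE and from 1 (without RE replicate 1) to 19 (without E replicate 2) in E vs. RE. The background at those 3 low counts was also lower, at 6.44%, 4.86% and 0.274%. Scaled by library totals in place of TMM, which put the median of all genes at −0.29, 0.18 and −0.082 on the log2 scale, the guidance genes called were 8 higher and 10 lower in E vs. M, 14 and 6 in M vs. RE and 10 and 2 in E vs. RE. The share of all genes called under that scaling was 18.9%, 13.7% and 8.75% in the 3 comparisons. These are bulk cultures, in which fewer cells expressing a gene and less of its RNA in each cell cannot be told apart.

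**Figure D1:**
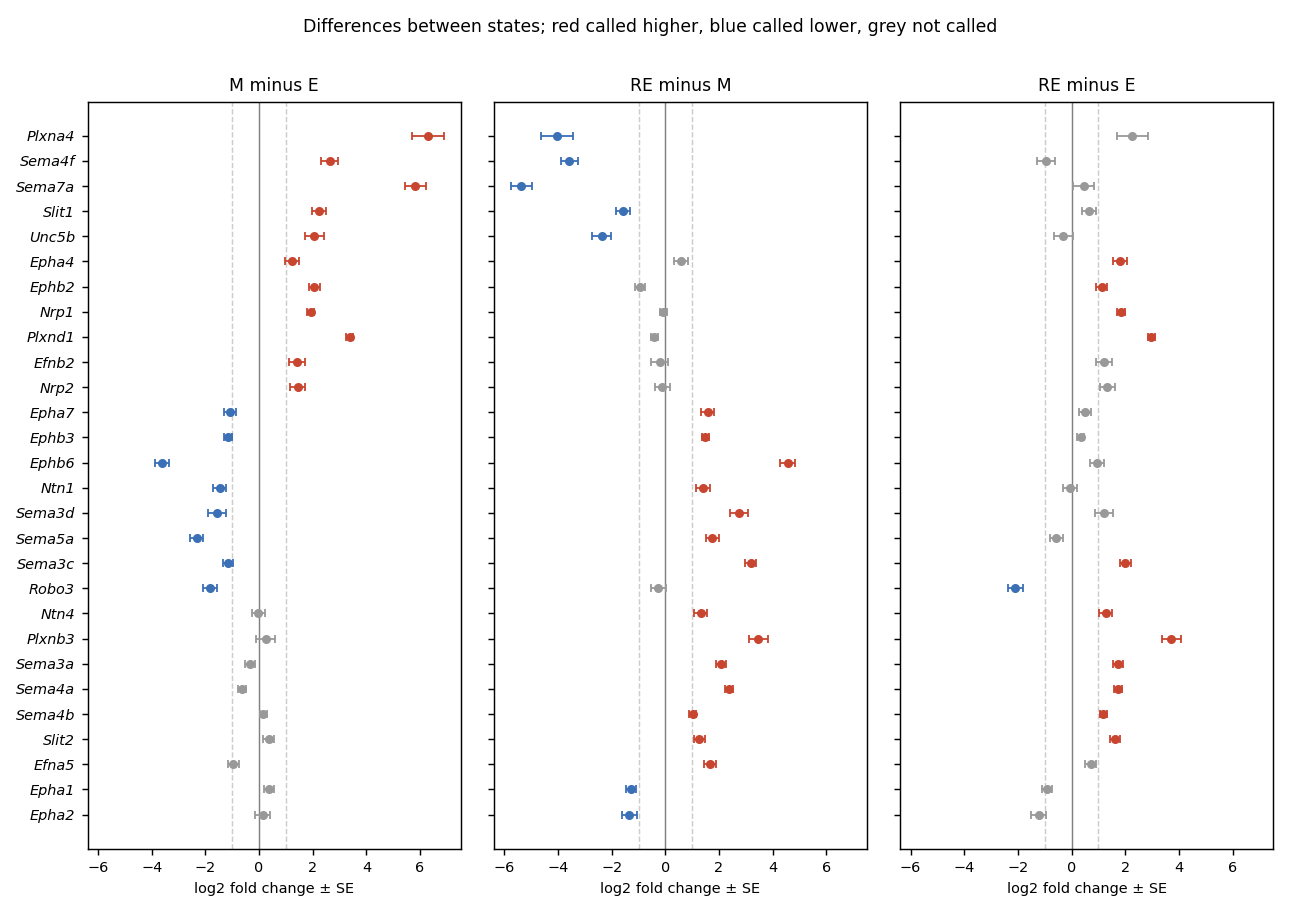
Log2 fold changes (x axis, log2 units, points with SE as bars) of the 28 called guidance genes in M minus E, RE minus M and RE minus E, from limma with 2 libraries a group; dashed lines mark a log2 fold change of 1 either way. Genes called higher are red and called lower blue, and the RE minus E panel has 11 red points and 1 blue point (*Robo3*).

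The calls fell into a few orders, and 4 of these held 21 of the 28 genes. How often all genes tested took the same orders was not counted. Raised in M and lowered again in RE, with no call between E and RE, were *Plxna4*, *Sema4f*, *Sema7a*, *Slit1* and *Unc5b*. Lowered in M and raised again in RE, with no call between E and RE, were *Epha7*, *Ephb3*, *Ephb6*, *Ntn1*, *Sema3d* and *Sema5a*. Raised in M and still above E in RE were *Epha4*, *Ephb2*, *Nrp1* and *Plxnd1*. Higher in RE than in both other states, with no call between E and M, were *Ntn4*, *Plxnb3*, *Sema3a*, *Sema4a*, *Sema4b* and *Slit2*. The sequence before the transcription start of 1 gene of each order is printed here, so that the starting points of genes with opposite behaviour can be compared. It is the gene with the largest change among those with a single start in RefSeq (25 of the 28 have an entry), and each is the 250 bases upstream of the start on the gene's strand, from build GRCm38.p6, which is newer than the NCBI-m37 build the authors mapped to. *Sema7a* stands for the genes raised in M and lowered again in RE (chr9:57939862-57940111 on the plus strand). *Ephb6* stands for those lowered in M and raised again in RE (chr6:41605261-41605510 on the plus strand). *Plxnd1* stands for those raised in M and still above E in RE (chr6:115995006-115995255 on the minus strand). *Plxnb3* stands for those higher in RE than in both other states (chrX:73756853-73757102 on the plus strand). Capitals mark a TEAD motif, the 1 match found among the 4 motifs searched.
Sema7a: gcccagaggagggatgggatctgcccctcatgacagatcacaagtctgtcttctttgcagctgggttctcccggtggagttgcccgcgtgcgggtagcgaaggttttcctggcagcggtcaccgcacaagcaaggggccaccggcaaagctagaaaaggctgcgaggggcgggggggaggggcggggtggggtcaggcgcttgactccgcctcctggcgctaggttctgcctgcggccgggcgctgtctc
Ephb6: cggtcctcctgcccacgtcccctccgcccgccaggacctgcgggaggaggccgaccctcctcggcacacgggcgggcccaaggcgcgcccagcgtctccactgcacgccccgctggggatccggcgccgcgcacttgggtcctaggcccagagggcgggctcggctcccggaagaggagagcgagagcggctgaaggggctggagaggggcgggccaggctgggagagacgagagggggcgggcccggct
Plxnd1: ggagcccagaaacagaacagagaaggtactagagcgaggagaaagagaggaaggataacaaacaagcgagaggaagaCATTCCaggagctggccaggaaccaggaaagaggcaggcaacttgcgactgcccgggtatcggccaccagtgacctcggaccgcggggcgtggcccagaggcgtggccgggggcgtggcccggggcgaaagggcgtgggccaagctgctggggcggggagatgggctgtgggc
Plxnb3: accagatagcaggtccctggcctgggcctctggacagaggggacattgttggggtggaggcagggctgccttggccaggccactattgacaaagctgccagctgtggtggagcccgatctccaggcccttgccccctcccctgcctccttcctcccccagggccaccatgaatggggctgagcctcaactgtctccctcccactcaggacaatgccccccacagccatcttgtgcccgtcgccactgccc
These windows were 66.4%, 76.8%, 64.8% and 65.2% G and C in that order, where the mean over all RefSeq windows of this length is 53.2%. The motifs were the Smad palindrome GTCTAGAC, the AP-1 motif TGANTCA, the E-box CACCTG and the TEAD motif GGAATG, each on both strands. None of the 4 contains another. In the *Plxnd1* window the TEAD motif stood on the opposite strand, from 173 to 168 bases before the start. Over the 25 called genes with an entry, 6 had the E-box (*Efnb2*, *Epha1*, *Ephb2*, *Robo3*, *Sema3d* and *Sema4f*) and 5 the TEAD motif (*Efnb2*, *Epha1*, *Epha2*, *Plxnd1* and *Sema4a*), where 19.4% and 14.4% of all genes in the RefSeq table have one. The AP-1 motif was in 0 of the 25 (7.82% of all genes) and the Smad palindrome in 0 (0.2%). A match describes these letters and shows no binding.

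Among the Eph receptors, the EphB members moved in opposite directions with TGF-β1. Of 13 receptors in the table, 9 were tested, and *Epha4* and *Ephb2* rose and *Epha7*, *Ephb3* and *Ephb6* fell in E vs. M. Over all genes tested, 8.58% rose and 8.39% fell in that comparison. Of the 9 receptors, 7 were called at least once (77.8%), against 24.2% of all genes tested. *Ephb6*, a receptor whose kinase domain is inactive, was at 64.1 and 43.5 ppm in the E libraries, 3.31 and 5.41 ppm in the M libraries and 109.7 and 95.05 ppm in the RE libraries. Both M libraries lay far below the others, at 12.3-fold less than E by the means (E vs. M, log2 fold change −3.61, SE 0.27, adjusted p = 7.59e-05 by limma), and it rose again on withdrawal (M vs. RE, log2 fold change 4.56, SE 0.27, adjusted p = 3.24e-05 by limma). The RE mean was above the E mean but not called (log2 fold change 0.95, limma adjusted p = 0.0339, 95% interval 0.32 to 1.58). *Ephb3*, which marks positions along epithelial tissues such as the gut crypt, was at 61.96 and 75.6 ppm in the E libraries, 29.2 and 31.9 ppm in the M libraries and 84.9 and 87.7 ppm in the RE libraries. It fell in M (E vs. M, log2 fold change −1.16, SE 0.15, adjusted p = 0.000799 by limma) and rose in RE (log2 fold change 1.5, limma adjusted p = 0.000287). *Ephb2*, an active kinase that binds B ephrins, moved the other way, at 21.8 and 31.2 ppm in the E libraries, 109 and 110.4 ppm in the M libraries and 52.5 and 61.03 ppm in the RE libraries. The M libraries were the highest and the RE libraries were in between, so that it rose in M (log2 fold change 2.07, SE 0.19, adjusted p = 0.00018 by limma) and was still above E in RE (log2 fold change 1.12, limma adjusted p = 0.00518). The M vs. RE difference (log2 fold change −0.95, limma adjusted p = 0.00777) was under the fold threshold. *Ephb4*, the main receptor of ephrin-B2, was not called in any comparison and stayed between 195 and 268 ppm in the 6 libraries.

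The EphA receptors were led by *Epha2*, a receptor of A ephrins that is common in epithelia, at 309 and 598 ppm in the E libraries, 497 and 446 ppm in the M libraries and 174 and 196 ppm in the RE libraries. The E libraries lay on either side of the M libraries, while both RE libraries were below the other 4 libraries. It was called lower in RE than in M (log2 fold change −1.35, SE 0.28, adjusted p = 0.00956 by limma) and missed the threshold against E (log2 fold change −1.22, limma adjusted p = 0.0163). *Epha1* had the same order at 82.3 and 114 ppm in the E libraries, 142 and 109 ppm in the M libraries and 52.7 and 50.2 ppm in the RE libraries, and fell from M to RE (log2 fold change −1.28, SE 0.20, adjusted p = 0.0025 by limma) but was not called against E (log2 fold change −0.91, limma adjusted p = 0.0127). *Epha4*, which can bind ephrins of both kinds, was much lower, at 0.831 and 1.05 ppm in the E libraries, 2.33 and 2.31 ppm in the M libraries and 4.23 and 2.89 ppm in the RE libraries. It was above E both in M (log2 fold change 1.22, limma adjusted p = 0.00881) and in RE (log2 fold change 1.8, limma adjusted p = 0.00317). Its rise in M is close to both thresholds. *Epha7* was at 3.69 and 3.49 ppm in the E libraries, 1.63 and 1.66 ppm in the M libraries and 6.14 and 4.23 ppm in the RE libraries and fell in M (log2 fold change −1.08, limma adjusted p = 0.00919) before a rise in RE (log2 fold change 1.58, limma adjusted p = 0.00228). *Epha3* was tested at 0.0347, 0.145 and 0.456 ppm in the E, M and RE means and was not called, with both E libraries at or under 3 reads' worth. Summed per kb of transcript, EphA receptors came to 147 ± 58.9 ppm per kb in the E (SD, n = 2), 159.5 ± 16.1 in the M and 64.4 ± 3.16 in the RE cells, of which *Epha2* made between 71.4% and 81.1% in each library. EphB receptors came to 90.03 ± 2.91, 78.8 ± 0.466 and 95.7 ± 1.55 ppm per kb, with the opposite changes of *Ephb2*, *Ephb3* and *Ephb6* inside that sum. The calls on *Epha1*, *Epha2*, *Epha4* and *Epha7* were lost without any 1 of the M or RE libraries, except that *Epha7* kept its M vs. RE call without RE replicate 2 (adjusted p up to 0.0898 by limma), as was the E vs. M call on *Ephb3* without 1 M library (up to 0.0183). The E vs. RE call on *Ephb2* was lost without 1 M or RE library (up to 0.054) and without E replicate 1, where its log2 fold change was 0.86. Some of these calls also ended with all libraries kept. The *Epha2* call was kept in only 5 of 15 alternatives and was lost with other scalings, filters and pseudocounts (adjusted p from 0.0102 to 0.0189 by limma). The E vs. M calls on *Epha4* and *Epha7* were kept in 5 and 6 of 15, and were lost with array weights, no filter, a fit of 2 groups and a pseudocount of 1 ppm (adjusted p up to 0.0355 and 0.0403), that on *Epha4* also with library totals. A fit of only E and RE ended the E vs. RE calls on *Epha4* (0.0158) and *Ephb2* (0.0243).

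**Figure D2:**
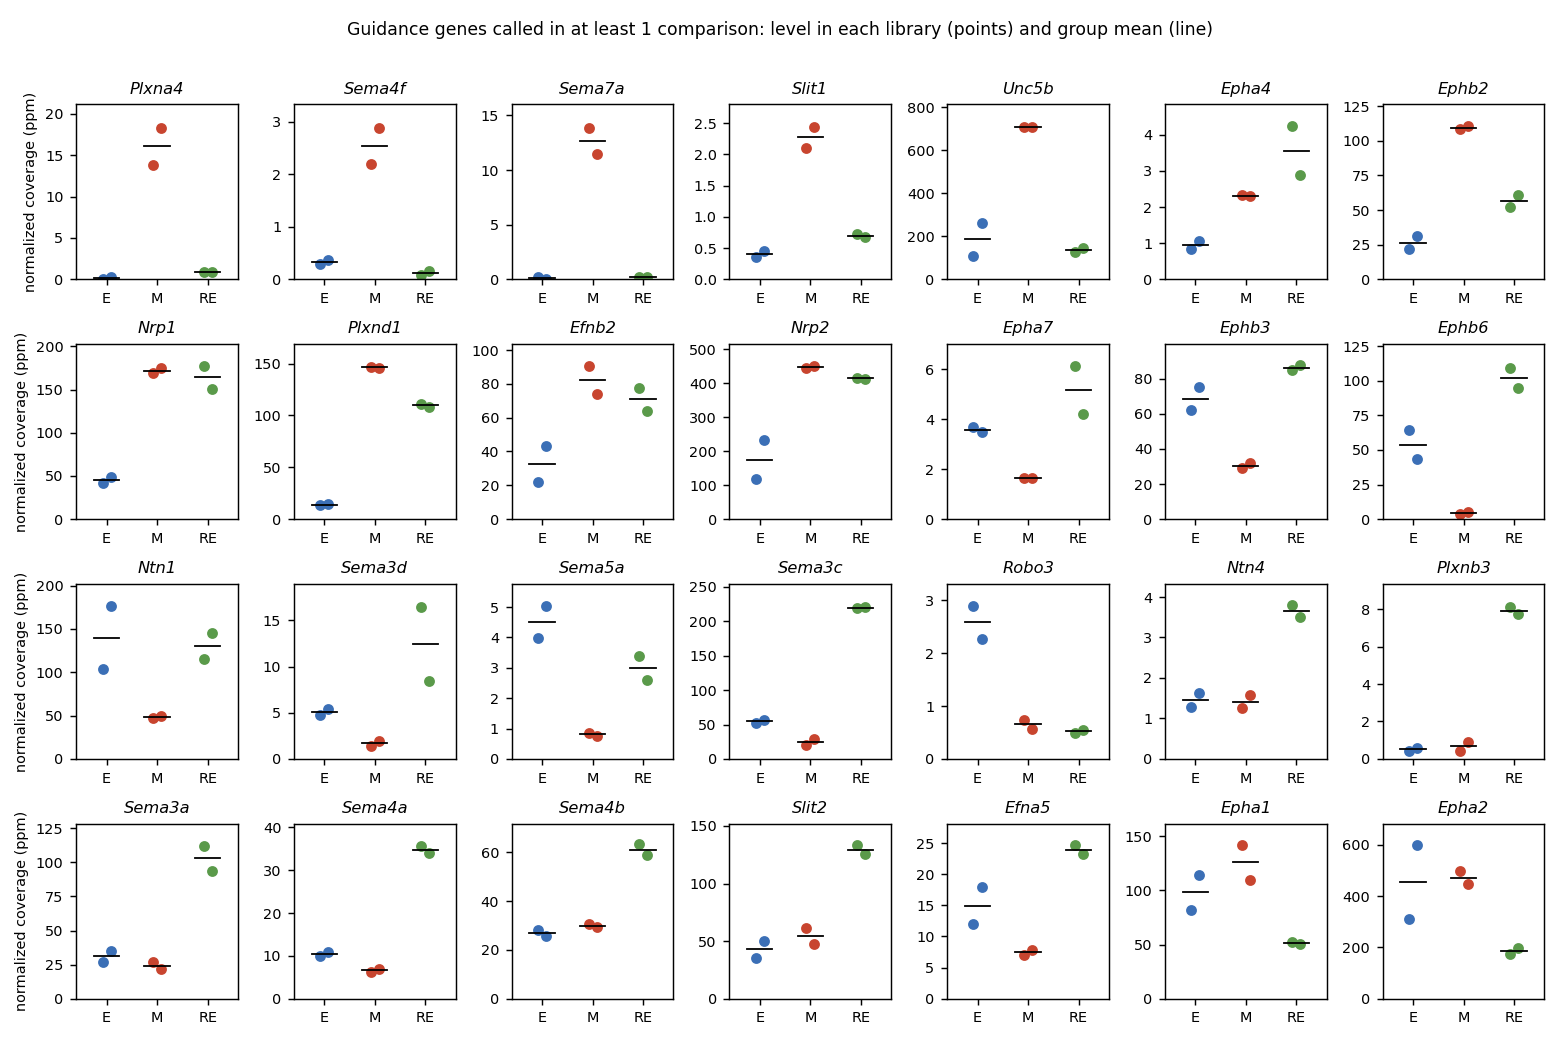
Normalized coverage (y axis, ppm, linear from 0) of the 28 called guidance genes in the 2 E, 2 M and 2 RE libraries (points), with the group mean as a line, ordered by their calls. *Unc5b* and *Sema7a* stand high in M only, *Ephb6* low in M only, and *Sema3c*, *Plxnb3* and *Slit2* highest in RE.

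Of 7 ephrins tested, 2 were called at least once (28.6%), near the 24.2% of all genes tested. *Efnb2*, the transmembrane ephrin that binds *Ephb4* and other EphB receptors, was at 21.7 and 43.5 ppm in the E libraries, 90.6 and 74.2 ppm in the M libraries and 77.7 and 64.1 ppm in the RE libraries. Each M library was above both E libraries, and the rise was called (log2 fold change 1.41, SE 0.30, adjusted p = 0.00846 by limma), whereas the RE libraries, at similar levels to M, missed the threshold against E (log2 fold change 1.2, limma adjusted p = 0.0231). *Efna5*, an A ephrin with a lipid anchor, was lowest in M, at 11.98 and 17.9 ppm in the E libraries, 7.08 and 7.905 ppm in the M libraries and 24.6 and 23.3 ppm in the RE libraries. It rose from M to RE (log2 fold change 1.67, SE 0.21, adjusted p = 0.00105 by limma), and its E vs. M difference was just under the fold threshold (log2 fold change −0.96, limma adjusted p = 0.00947). The highest ephrins without a call were *Efna1*, at 27.04 and 24.8 ppm in the E libraries, 38.7 and 44.2 ppm in the M libraries and 42.3 and 42.7 ppm in the RE libraries, and *Efnb1*, with means of 25.7, 38.98 and 30.7 ppm in the E, M and RE cells. *Efna1* had an adjusted p below 0.01 in both M and RE against E, at log2 fold changes of 0.67 (0.00714 by limma) and 0.71 (0.00882), both under the fold threshold. *Efna3*, *Efna4* and *Efnb3* were not called. The *Efnb2* call was lost without any 1 of the M or RE libraries (adjusted p up to 0.0795 by limma) and without E replicate 1, where the log2 fold change was 0.91, and the *Efna5* call without any 1 of the M or RE libraries (up to 0.0212). The *Efnb2* call was kept in only 5 of 15 alternatives, and with all libraries it was lost under median-of-ratios scaling, library totals, no filter and a fit of only E and M (adjusted p from 0.0101 to 0.0212 by limma).

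Class 3 semaphorins, the secreted ligands of neuropilins and plexins, rose on withdrawal where they were called in M vs. RE, and 2 of them, *Sema3a* and *Sema3c*, ended above the E cells. Of 7 tested, 0 rose in M, 2 fell, 3 rose from M to RE and 0 fell. Over all genes tested, 8.58% rose and 8.39% fell in M, and 8.08% rose and 4.79% fell from M to RE. *Sema3c*, which acts through both neuropilins and plexin D1, was at 52.4 and 56.7 ppm in the E libraries, 19.8 and 29.5 ppm in the M libraries and 219 and 221 ppm in the RE libraries. The RE libraries were about alike and 4.03-fold above E and 8.91-fold above M by the means, and all 3 comparisons were called (E vs. M, log2 fold change −1.17, SE 0.19, adjusted p = 0.00266 by limma; M vs. RE, log2 fold change 3.18, limma adjusted p = 3.54e-05; E vs. RE, log2 fold change 2.01, limma adjusted p = 0.000669). *Sema3a*, the repellent that binds neuropilin-1, did not differ by call between E and M but was higher in RE, at 27.1 and 35.1 ppm in the E libraries, 26.8 and 21.8 ppm in the M libraries and 112 and 93.9 ppm in the RE libraries. Its log2 fold change was 1.73 against E (SE 0.19, adjusted p = 0.00105 by limma) and 2.08 against M (SE 0.19, adjusted p = 0.00019). *Sema3d* was at 4.81 and 5.38 ppm in the E libraries, 1.38 and 1.99 ppm in the M libraries and 16.5 and 8.46 ppm in the RE libraries, with RE replicate 1 well above RE replicate 2. It fell in M (log2 fold change −1.56, limma adjusted p = 0.00823) and rose in RE (log2 fold change 2.76, limma adjusted p = 0.000834), and was not called between E and RE (log2 fold change 1.2, limma adjusted p = 0.0315). *Sema3f*, the neuropilin-2 ligand and the highest of the class per kb, was not called, at 115 ± 17.1, 151 ± 14.6 and 158 ± 6.18 ppm (SD, n = 2) in E, M and RE. *Sema3b*, *Sema3e* and *Sema3g* were not called either, though *Sema3b* was low in both M libraries (0.216 and 0.531 ppm, against 1.61 in the E mean). Per kb, the class summed to 55.6 ± 6.496 ppm per kb in E (SD, n = 2), 57.3 ± 4.06 in M and 110.3 ± 1.12 in RE. The share of *Sema3f* in that sum was between 76.4% and 79.2% in the M and between 40.7% and 43.6% in the RE libraries. The E vs. RE calls on *Sema3a* and *Sema3c* were lost without either RE library (adjusted p up to 0.0243 and 0.0172 by limma), the E vs. M call on *Sema3c* without M replicate 1 or either RE library (up to 0.0244) and that on *Sema3d* without either M library (up to 0.0782). The M vs. RE call on *Sema3d* was lost without M replicate 1 (0.0152). With all libraries, the E vs. M call on *Sema3d* was lost with array weights, no filter and a pseudocount of 1 ppm (adjusted p up to 0.0297 by limma), and that on *Sema3c* in a fit of only E and M (0.0113).

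The membrane semaphorins had calls in both directions, with *Sema4f* and *Sema7a* highest in M and *Sema4a* and *Sema4b* highest in RE. *Sema7a*, which is held by a lipid anchor and binds plexin C1 and integrins, was at 0.231 and 0.0521 ppm in the E libraries, 13.9 and 11.5 ppm in the M libraries and 0.209 and 0.205 ppm in the RE libraries. Outside M it was at most 0.231 ppm, where 3 reads' worth, taken as the floor, is 0.0635 to 0.0781 ppm. It rose with TGF-β1 (log2 fold change 5.82, SE 0.39, adjusted p = 5.12e-05 by limma) and fell on withdrawal (log2 fold change −5.37, SE 0.39, adjusted p = 7.42e-05 by limma). *Sema4f* followed the same course at lower levels, 0.284 and 0.364 ppm in the E libraries, 2.19 and 2.89 ppm in the M libraries and 0.0847 and 0.1602 ppm in the RE libraries, with called changes in E vs. M (log2 fold change 2.63, limma adjusted p = 0.000799) and M vs. RE (log2 fold change −3.58, limma adjusted p = 0.000225). *Sema5a*, which carries thrombospondin repeats, did the reverse, at 3.99 and 5.02 ppm in the E libraries, 0.8602 and 0.769 ppm in the M libraries and 3.37 and 2.601 ppm in the RE libraries. It fell in M (log2 fold change −2.32, limma adjusted p = 0.000355) and rose in RE (log2 fold change 1.75, limma adjusted p = 0.00166), and RE was not called against E (log2 fold change −0.58, 95% interval −1.15 to −0.0093). *Sema4a* was highest in RE, at 10.03 and 10.9 ppm in the E libraries, 6.35 and 7.05 ppm in the M libraries and 35.6 and 34 ppm in the RE libraries, above M by 2.36 (SE 0.15, adjusted p = 4.7e-05 by limma) and above E by 1.72 (SE 0.15, adjusted p = 0.000556) on the log2 scale. *Sema4b* was also highest in RE, at 28.01 and 25.8 ppm in the E libraries, 30.6 and 29.3 ppm in the M libraries and 63.2 and 58.99 ppm in the RE libraries, with log2 fold changes of 1.03 against M and 1.18 against E (adjusted p = 0.00113 and 0.00119 by limma), the first close to the fold threshold. *Sema4d*, a ligand of plexin B1, was the highest of the membrane semaphorins and was not called, at 96.7 ± 22.2, 136 ± 1.28 and 82.98 ± 4.24 ppm (SD, n = 2) in E, M and RE. *Sema4c*, *Sema4g*, *Sema5b*, *Sema6a*, *Sema6b* and *Sema6c* were not called in any comparison. The M vs. RE calls on *Sema4b* and *Sema5a* were lost without any 1 of the M or RE libraries (adjusted p up to 0.0267 and 0.0278 by limma), the E vs. RE calls on *Sema4a* and *Sema4b* without either RE library (up to 0.0178 and 0.03) and the E vs. M call on *Sema4f* without M replicate 2 (0.015). Under a pseudocount of 1 ppm the E vs. M value of *Sema7a* was 3.58 and that of *Sema4f* 1.41, since both are low outside M.

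On the receptor side of the semaphorins, 4 of 11 tested genes rose in M and 0 fell, against 8.58% and 8.39% of all genes tested. Both neuropilins, the co-receptors that class 3 semaphorins share with VEGF, were among the 4 that rose. *Nrp1* was at 42.1 and 48.9 ppm in the E libraries, 169 and 175 ppm in the M libraries and 177 and 151 ppm in the RE libraries. The M and RE libraries overlapped and all 4 were above both E libraries, so *Nrp1* rose in M (log2 fold change 1.92, SE 0.14, adjusted p = 7.8e-05 by limma) and was above E in RE too (log2 fold change 1.85, SE 0.14, adjusted p = 0.000382 by limma). Between M and RE its log2 fold change was −0.069 (95% interval −0.4 to 0.27), a sign that changed to 0.14 with library totals in place of TMM. *Nrp2* had the same order, at 118 and 232 ppm in the E libraries, 446 and 451 ppm in the M libraries and 417 and 412 ppm in the RE libraries, with a call in E vs. M (log2 fold change 1.44, limma adjusted p = 0.00554) and none in E vs. RE (log2 fold change 1.32, limma adjusted p = 0.0119), and its E libraries were unequal. *Plxnd1*, the receptor of Sema3e and a partner of neuropilins for Sema3c, was at 13.2 and 14.8 ppm in the E libraries, 147 and 146 ppm in the M libraries and 111 and 108 ppm in the RE libraries. All M and RE libraries were above both E libraries, by 10.5-fold in M and 7.85-fold in RE by the means (for M, log2 fold change 3.38, SE 0.13, adjusted p = 9.2e-06 by limma, and for RE, log2 fold change 2.97, limma adjusted p = 8.62e-05). Its calls in both were kept under each alternative tried, and in E vs. RE it is the 1 guidance gene of which that is true.

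Of the other plexins, *Plxna4*, which joins neuropilin-1 in the receptor for Sema3a, was at 0 and 0.312 ppm in the E libraries, 13.8 and 18.3 ppm in the M libraries and 0.9101 and 0.842 ppm in the RE libraries, that is, from between 0 and 12 reads' worth in E to between 576 and 754 in M. It rose in M (log2 fold change 6.3, SE 0.58, adjusted p = 0.000198 by limma) and fell in RE (log2 fold change −4.04, limma adjusted p = 0.00194), where it was above E without a call (log2 fold change 2.26, limma adjusted p = 0.0249). Its fitted value depends on the pseudocount, since E replicate 1 had 0 bases, and ran from 3.88 to 7.44 over the alternatives. *Plxnb3*, a receptor of Sema5a, was at 0.436 and 0.588 ppm in the E libraries, 0.411 and 0.924 ppm in the M libraries and 8.1 and 7.72 ppm in the RE libraries. Only the RE libraries were above 1 ppm, and RE was above M by 3.47 (SE 0.36, adjusted p = 0.000377 by limma) and above E by 3.72 (SE 0.36, adjusted p = 0.000683) on the log2 scale. *Plxnb2*, the plexin with the highest level, was not called and was at 1041 ± 195, 1228 ± 5.37 and 1012 ± 5.03 ppm (SD, n = 2) in E, M and RE. *Plxna1* was at 204 and 526 ppm in the E libraries, 677 and 703 ppm in the M libraries and 407 and 386 ppm in the RE libraries, and its log2 fold change of 1.07 in E vs. M, with unequal E libraries, was not called (adjusted p = 0.0527 by limma). *Plxna2*, *Plxna3*, *Plxnb1* and *Plxnc1* had no call, although *Plxna3* reached a log2 fold change of 1.34 in E vs. RE at an adjusted p of 0.01 by limma, at the threshold. *Plxnc1*, the plexin that binds Sema7a, was at 0.236 ± 0.191 ppm (SD, n = 2) in M. The *Nrp2* call was lost without 1 M or RE library (adjusted p up to 0.0501 by limma) and without E replicate 1 (log2 fold change 0.95), the M vs. RE call on *Plxna4* without 1 M or RE library (up to 0.0284), the E vs. RE call on *Plxnb3* without either RE library (up to 0.0172) and that on *Nrp1* without RE replicate 1 (0.0134). With all libraries, the *Nrp2* call was lost under library totals, no filter and a fit of only E and M (adjusted p from 0.0114 to 0.0171 by limma), so that it was kept in 7 of 15 alternatives, and the M vs. RE call on *Plxna4* was lost with a pseudocount of 0.025 ppm (0.0196).

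**Figure D3:**
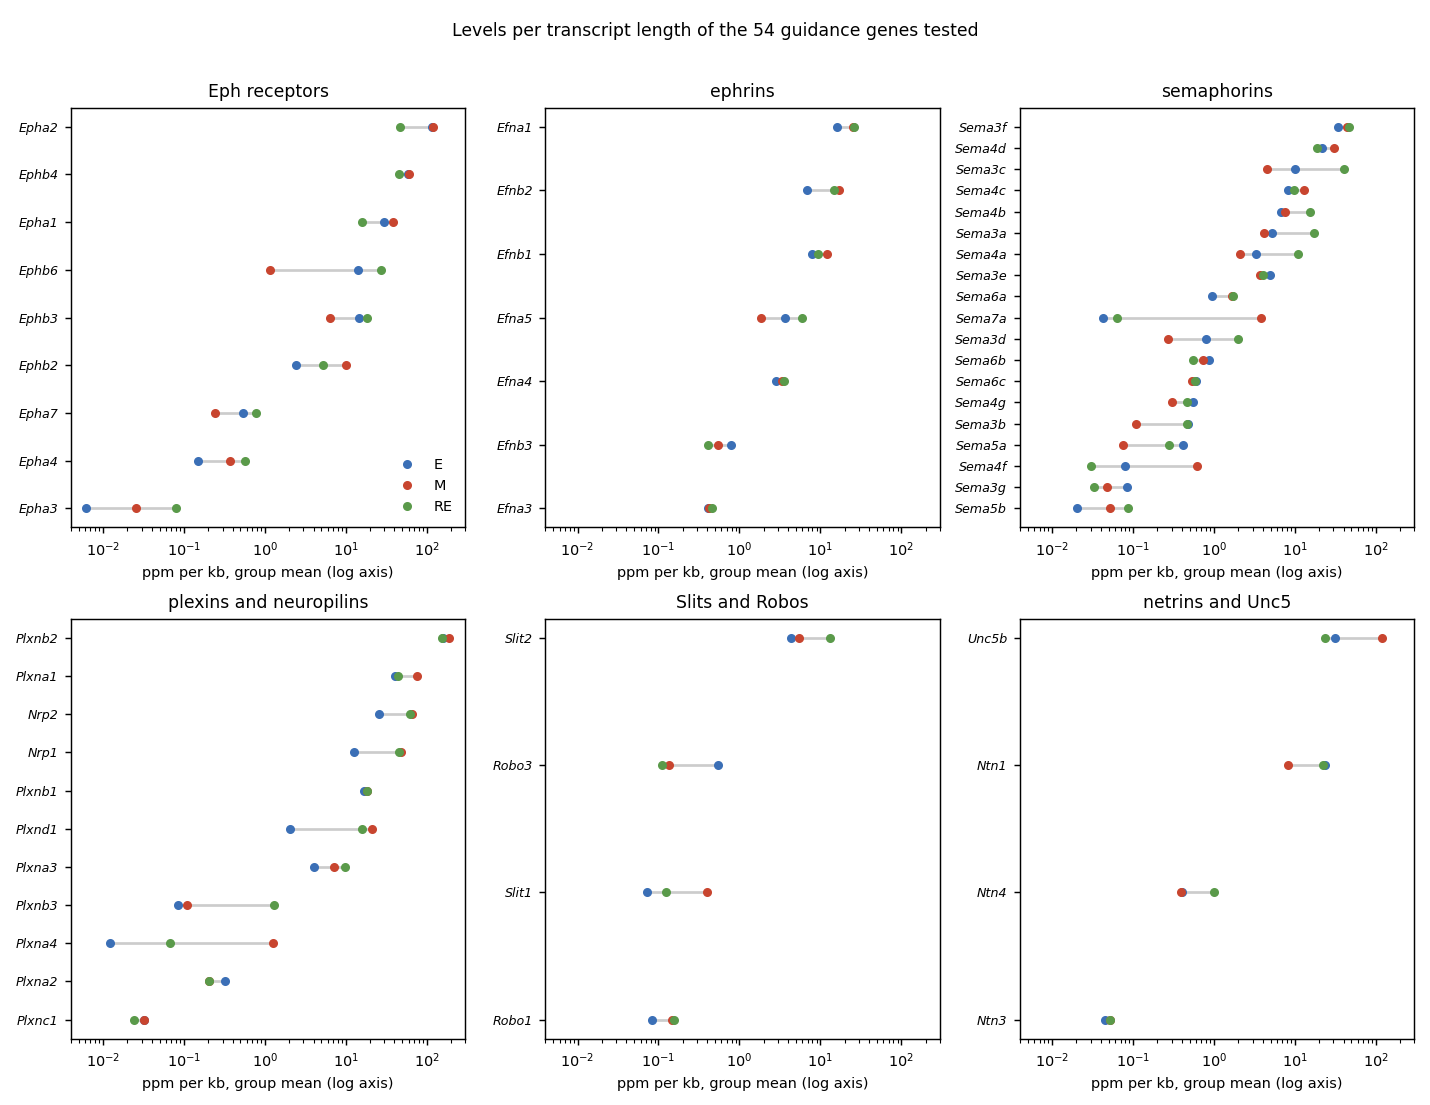
Group means (x axis, ppm per kb of the longest coding transcript, log axis) of the 54 guidance genes tested, in 6 panels by role, with E in blue, M in red and RE in green and a grey line over the range. *Plxnb2* is the highest gene in each state, and the lines of *Plxna4* and *Sema7a* are the longest, with M at their upper end.

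Slits and Robos were sparse on the receptor side. *Slit2*, the secreted Slit that binds Robo1 and Robo2, was at 35.4 and 50.2 ppm in the E libraries, 61.5 and 47.4 ppm in the M libraries and 133 and 126 ppm in the RE libraries. It was higher in RE than in both other states (log2 fold change 1.62 against E, adjusted p = 0.00172, and 1.26 against M, adjusted p = 0.00306 by limma) and did not differ by call between E and M (log2 fold change 0.36, limma adjusted p = 0.192). *Slit1* was far lower and peaked in M, at 0.358 and 0.458 ppm in the E libraries, 2.102 and 2.44 ppm in the M libraries and 0.723 and 0.6698 ppm in the RE libraries, with calls in E vs. M (log2 fold change 2.23, limma adjusted p = 0.000667) and M vs. RE (log2 fold change −1.57, limma adjusted p = 0.00405). *Robo3*, a Robo known from axons that cross the midline, fell in M and was below E in RE too, at 2.89 and 2.28 ppm in the E libraries, 0.731 and 0.575 ppm in the M libraries and 0.494 and 0.551 ppm in the RE libraries (M against E, log2 fold change −1.83, limma adjusted p = 0.00175, and RE against E, log2 fold change −2.1, limma adjusted p = 0.00202). It is the 1 guidance gene called lower in RE than in E. *Robo1* was tested and not called, at 0.634, 1.12 and 1.17 ppm in the E, M and RE means, and *Robo2* and *Robo4* had at most 8 reads' worth in any library. Per kb, the Slits summed to 13.1 ± 0.516 ppm per kb in RE (SD, n = 2), and the Robos to 0.268 ± 0.0526. The M vs. RE calls on *Slit1* and *Slit2* were lost without any 1 of the M or RE libraries (adjusted p up to 0.0479 and 0.0425 by limma), the E vs. RE call on *Slit2* without either RE library (up to 0.0321), the E vs. M call on *Slit1* without M replicate 2 (0.0131), and the calls on *Robo3* without 1 M library in E vs. M (up to 0.0235) or 1 RE library in E vs. RE (up to 0.0329). With a pseudocount of 1 ppm the M vs. RE log2 fold change of *Slit1* was −0.95, under the fold threshold.

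In the netrin system, *Ntn1* and its receptor *Unc5b* moved in opposite directions. *Ntn1*, the laminin-related secreted netrin that binds Dcc, neogenin and Unc5 receptors, was at 103 and 177 ppm in the E libraries, 47.8 and 49.7 ppm in the M libraries and 115 and 145 ppm in the RE libraries. Both M libraries were below all others, so *Ntn1* fell in M (log2 fold change −1.47, SE 0.25, adjusted p = 0.00309 by limma) and rose in RE (log2 fold change 1.41, SE 0.25, adjusted p = 0.00477 by limma). *Unc5b*, the receptor tied to repulsion and to cell death in the absence of netrin, was at 110.1 and 260.4 ppm in the E libraries, 709.5 and 708 ppm in the M libraries and 128 and 146 ppm in the RE libraries. The M libraries were about alike and above all others, and *Unc5b* rose in M (log2 fold change 2.06, SE 0.34, adjusted p = 0.00292 by limma) and fell in RE (log2 fold change −2.37, SE 0.34, adjusted p = 0.00197 by limma). Neither was called between E and RE, where the log2 fold change of *Ntn1* was −0.064 (95% interval −0.64 to 0.51) and that of *Unc5b* −0.31 (95% interval −1.11 to 0.5). E replicate 2 was above E replicate 1 in both genes. *Ntn4*, a netrin of basement membranes that binds laminins, was higher in RE, at 1.29 and 1.62 ppm in the E libraries, 1.25 and 1.57 ppm in the M libraries and 3.798 and 3.503 ppm in the RE libraries, with calls against M (log2 fold change 1.32, limma adjusted p = 0.0057) and E (log2 fold change 1.28, limma adjusted p = 0.00792) that are close to both thresholds. *Ntn3* was tested at between 0.0307 and 0.492 ppm and was not called. *Ntn1* and *Unc5b* lost their E vs. M calls without either M library (adjusted p up to 0.0371 and 0.033 by limma) and their M vs. RE calls without any 1 of the M or RE libraries (up to 0.0544 and 0.0273), and both calls on *Ntn4* were lost without any 1 of those 4 libraries (up to 0.0909). With all libraries, the E vs. RE call on *Ntn4* was lost with array weights, library totals, no filter, a fit of only E and RE and a pseudocount of 1 ppm, which left it in 5 of 15 alternatives, and its M vs. RE call was lost with no filter and a pseudocount of 1 ppm (9 of 15).

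A ratio of 2 genes within a library is free of the scaling between libraries, and 4 such ratios, of levels per kb, were picked after the levels were seen. *Unc5b* to *Ntn1* was 1.07 and 1.47 in the E libraries, 14.9 and 14.2 in the M libraries and 1.12 and 1.003 in the RE libraries. The E libraries, unequal in either gene, were closer to each other in this ratio than either was to M. *Ephb2* to *Ephb6* was 0.117 and 0.247, 11.3 and 7.04, and 0.165 and 0.222 in the E, M and RE libraries, below 1 in E and RE and above 1 in M. *Sema3c* to *Sema3f*, within class 3, was 0.313 and 0.275, 0.0759 and 0.129, and 0.882 and 0.842, lowest in M and highest in RE. *Plxnd1* to *Plxnb2*, within the plexins, was 0.0137 and 0.0118, 0.112 and 0.112, and 0.104 and 0.1001, low in E and about alike in M and RE.

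**Figure D4:**
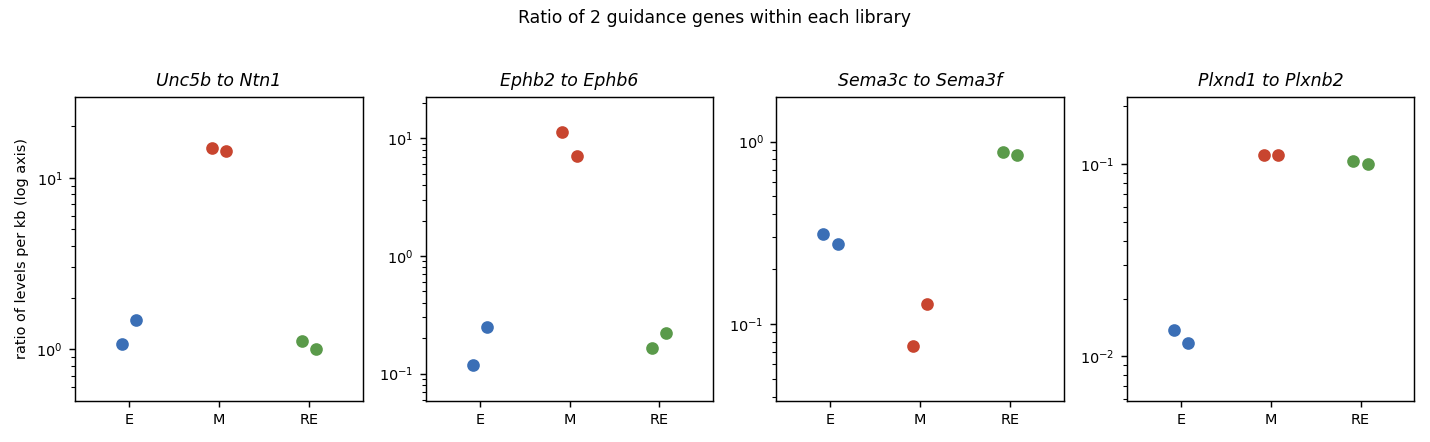
Ratio of the level per kb of 2 guidance genes within each library (y axis, log scale, 1 point a library), for the 2 E, 2 M and 2 RE libraries. *Unc5b* to *Ntn1* and *Ephb2* to *Ephb6* peak in M, *Sema3c* to *Sema3f* is lowest in M and highest in RE, and *Plxnd1* to *Plxnb2* is low in E only.

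The order of levels per kb, taken over group means, puts *Plxnb2* first in every state (160.3, 189 and 156 ppm per kb in E, M and RE). In E it was followed by *Epha2* (116) and *Ephb4* (58.8). In M, *Unc5b* (121) and *Epha2* (120.4) were next and nearly level, ahead of *Plxna1* (76.4) and *Nrp2* (66.8). In RE the next were *Nrp2* (61.6), *Epha2* (47.2), *Sema3f* (46.5), *Nrp1* (45.6), *Ephb4* (45.1), *Plxna1* (43.9) and *Sema3c* (40.03), a run of neighbours whose order rests on transcript lengths from a newer annotation than the authors used. Neuropilins summed to 38.7 ± 13.3 ppm per kb in E (SD, n = 2), 114 ± 1.71 in M and 107 ± 5.63 in RE, and plexins to 224 ± 61.5, 314 ± 1.67 and 245 ± 3.46.

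Genes that work with these ligands and receptors were taken from a list of 48 (other cues and co-receptors such as *Dcc*, *Neo1*, *Rgma* and the Flrt genes, and adaptors and signalling proteins inside the cell), of which 46 were in the table and 40 were tested. In E vs. M, 9 were called higher and 3 lower (30%, against 17% of all genes), in M vs. RE 4 higher and 5 lower (22.5%, against 12.9%), and 3 either way in E vs. RE (15%, against 9.37%). Their median log2 fold change was 0.44, −0.17 and 0.34 in the 3 comparisons. *Ngef*, or ephexin-1, an exchange factor that acts downstream of Eph receptors, had the largest fall in E vs. M, at 32.9 and 31.1 ppm in the E libraries, 0.479 and 0.3397 ppm in the M libraries and 7.49 and 5.63 ppm in the RE libraries (log2 fold change −5.99, SE 0.23, adjusted p = 9.2e-06 by limma), and was still below E in RE (log2 fold change −2.28, limma adjusted p = 0.000827) after a rise from M (log2 fold change 3.71, limma adjusted p = 3.94e-05). *Flrt1*, of the Flrt family of Unc5 and latrophilin ligands, was at 3.05 and 10.2 ppm in the E libraries, 0.0479 and 0.0728 ppm in the M libraries and 0.2802 and 0.577 ppm in the RE libraries. In M it had no more than 3 reads' worth a library, E was at least 91.4-fold higher (42.2-fold without E replicate 2), and RE was below E (log2 fold change −3.49, limma adjusted p = 0.00434). *Mical2*, an enzyme that oxidizes actin and belongs to a family first found with plexins, rose in M and fell in RE, at 22.9 and 44.6 ppm in the E libraries, 359 and 353 ppm in the M libraries and 89.7 and 75.3 ppm in the RE libraries (log2 fold change 3.47, limma adjusted p = 0.000112 and log2 fold change −2.11, limma adjusted p = 0.00134). *Rgma*, a neogenin ligand, was highest in RE, at 15.04 and 18.2 ppm in the E libraries, 6.404 and 9.096 ppm in the M libraries and 49.7 and 51.5 ppm in the RE libraries (log2 fold change 2.71, limma adjusted p = 8.26e-05 against M). *Ntng1*, a netrin-G on a lipid anchor, was at 0.162 and 0.1301 ppm in the E libraries, 0 and 0 ppm in the M libraries and 1.48 and 1.21 ppm in the RE libraries. It had 0 bases in both M libraries, so that RE was at least 18.6-fold above M, and RE was above E as well (log2 fold change 2.55, limma adjusted p = 0.00208). *Flrt2*, an Unc5 ligand picked after its values were seen, took the course of *Unc5b*, at 45.03 and 47.2 ppm in the E libraries, 229 and 205 ppm in the M libraries and 48.6 and 37.5 ppm in the RE libraries (M against E, log2 fold change 2.23, limma adjusted p = 6.52e-05, and RE against M, log2 fold change −2.34, limma adjusted p = 5.6e-05). *Dcc*, the other main netrin receptor, had at most 2 reads' worth in any library and was not tested. *Neo1* was at 236 ± 101, 311 ± 17.2 and 286 ± 20.6 ppm (SD, n = 2) in E, M and RE, with no call. Both were picked for their role, after their values were seen. Without 1 library at a time the counts ran from 8 to 16 in E vs. M, from 5 (without any 1 M or RE library) to 12 in M vs. RE, and from 0 (without either RE library) to 13 (without E replicate 2) in E vs. RE. The share of all genes called in those fits ran from 6.44% to 24.3%, from 4.86% to 16.8% and from 0.274% to 17%.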

How the data were processed

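RNA from 2 libraries each of E, M and RE cells was sequenced. Per the methods and labels, Bowtie and TopHat2 placed unique reads on NCBI-m37. The authors deposited the coverage (signal) of 17428 gene symbols as whole numbers that were not normalized, and the values behave as bases summed per gene: among values from 1 to 400, 44.8% to 48.4% in each library are multiples of 50. The summing step and its annotation are not given in the sources used here, so overlapping or near-identical genes may share coverage.

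Each column was matched to its library by state and replicate number. Coverage was scaled by TMM without weights (30% of log ratios and 5% of levels trimmed at each end, factors from 0.871 to 1.12) in R 4.3.3. A gene needed 500 bases or more in 2 libraries. The limma 3.58.1 fit used log2(ppm + 0.1) of 6 libraries by group, with a trend on level, and p-values were adjusted (Benjamini-Hochberg) over 13893 genes. A fold change on this scale understates changes of low genes. The edgeR test of the study needs counts and was not run. Coverage up to 150 bases (3 reads' worth) in every library of a group was treated as the floor. It covers counting error only. Levels per kb used the longest coding transcript of GENCODE M21, matched by symbol for 63 of 63 genes. Genes named with values are those called in at least 1 comparison, the highest of each role that were not called, and the 3 partner genes of largest change in each comparison. *Sema3b*, *Plxna3*, *Plxnc1*, *Dcc*, *Neo1* and *Flrt2* are outside that rule and were added after their values were seen.

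The guidance genes, gene lists, motifs and tests were chosen with earlier results of these data known. Whether equal replicate numbers pair the libraries was checked by correlating deviations from group means (E and M 0.27, E and RE 0.058, M and RE 0.12), which did not show pairing in all 3, so no block was used. Alternatives were other scalings, filters, pseudocounts, thresholds, a replicate block, array weights, fits of 2 groups, and leaving out each library.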

Additional observations from a re-analysis of the deposited data

How the results depend on the processing

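The 28 called guidance genes gave 52 calls. Under 15 alternatives, which gave 774 values for these calls, 623 values were still called and 0 changed sign. Called under every alternative that gave a value were 16: *Ephb2*, *Ephb6*, *Nrp1*, *Plxna4*, *Plxnd1*, *Sema5a* and *Sema7a* for M against E, *Ephb3*, *Ephb6*, *Plxnb3*, *Sema3a*, *Sema3c*, *Sema4a*, *Sema4f* and *Sema7a* for RE against M, and *Plxnd1* for RE against E. With 1 library left out, a lone library was assumed to vary like the other groups, and the guidance genes called ran from 8 to 23 for M against E, 8 to 22 for RE against M and 1 to 19 for RE against E. Partner genes ran from 8 to 16, 5 to 12 and 0 to 13, and the share of all genes from 6.44% to 24.3%, 4.86% to 16.8% and 0.274% to 17%. An adjusted p of 0.05 called 20 guidance genes in E vs. RE, where 12 were called at 0.01, and 13.6% of all genes against 9.37%. A fit of only the 2 groups compared called 3 partner genes in E vs. RE, where 6 were called, and 3.78% of all genes. With the replicate number as a block, 15, 21 and 11 guidance genes and 12, 9 and 7 partner genes were called in the 3 comparisons, beside 17.5%, 13.2% and 9.24% of all genes, and 5 calls were lost: *Efnb2*, *Epha4*, *Epha7* and *Sema3d* in E vs. M and *Ntn4* in E vs. RE. With library totals the median over all genes moved, on the log2 scale, to −0.29 for M against E, 0.18 for RE against M and −0.082 for RE against E. The share of all calls that were higher went from 50.6% to 30.5%, from 62.8% to 73.8% and from 66.2% to 57.1% in the 3 comparisons. Changes of sign were seen among differences that had no call. With library totals they were *Epha2* in E vs. M (−0.17), *Nrp1* (0.14) and *Nrp2* (0.091) in M vs. RE and *Sema4b* in E vs. M (−0.14). Without 1 library, log2 fold changes ran through 0 for *Epha2* (−0.34 to 0.60), *Ntn4* (−0.20 to 0.12) and *Plxnb3* (−0.25 to 0.75) in E vs. M, *Nrp1* in M vs. RE (−0.19 to 0.047), and *Ntn1* (−0.45 to 0.32), *Sema7a* (−0.11 to 1.01) and *Unc5b* (−0.93 to 0.31) in E vs. RE, and the cause was not tested. The filter of 500 bases in every library gave no value for *Plxna4*, *Sema4f* and *Sema7a*. The 9 guidance genes below the filter, with at most 8 reads' worth in any library, were not tested in the main fit. A difference in them is neither shown nor excluded.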
